A study of Mus musculus with 96 samples.

Results

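The loss of Ogg1 was examined through trimethylation of histone H3 at lysine 27 (H3K27me3) in neuronal nuclei of the mouse hippocampus. Chromatin from NeuN+ nuclei of Ogg1-/- mice was compared with that of wild-type (WT) mice, with 3 ChIP-seq samples per genotype, 6 of the 96 samples of the series. All animals were males on the C57BL/6N background at 6 months of age. The knockout is constitutive, so Ogg1 was missing from every cell since conception, and each sample pooled the hippocampi of several animals, so that the spread between samples is a spread between pools. Nuclei were sorted on the neuronal nuclear antigen NeuN, which keeps neurons and leaves glia in the NeuN- fraction. The table held 4132 peaks, and 4130 of them were tested after leaving out 2 windows annotated to Lrrc4c on chromosome 2. The same table holds 3 Mutyh-/- and 3 double-knockout (DKO, Ogg1-/- and Mutyh-/- combined) samples, which gave a comparison of the loss of Ogg1 on another background without shared samples.

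H3K27me3 is written by Polycomb repressive complex 2, in which Ezh2 or Ezh1 is the catalytic subunit and Suz12 a core partner. In neurons the mark typically covers CpG-rich promoters of developmental regulators that are silent there, such as genes of other cell lineages. Ogg1 is the DNA glycosylase that excises 8-oxoguanine paired with cytosine, and Mutyh removes adenine that was inserted opposite 8-oxoguanine. Neither enzyme writes or erases H3K27me3 itself.

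Sequences from 4 of the leading peaks are shown to set a CpG-rich start site that was lower in Ogg1-/- beside windows with few CpGs. They are RefSeq sequence of GRCm38, plus strand, with every CpG in capitals. Each leads its class and direction among the peaks that could be shown, and P4ha2 had the smallest p of all peaks.

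1700049E22Rik, promoter, higher, chr6:100526009-100526308: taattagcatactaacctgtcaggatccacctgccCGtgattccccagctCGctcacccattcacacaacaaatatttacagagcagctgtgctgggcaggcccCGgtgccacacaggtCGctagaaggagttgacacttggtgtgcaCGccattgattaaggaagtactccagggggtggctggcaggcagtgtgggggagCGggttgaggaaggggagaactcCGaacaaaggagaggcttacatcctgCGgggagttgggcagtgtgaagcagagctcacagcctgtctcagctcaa

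Nt5dc2, promoter, lower, chr14:31130898-31131088 (ends before the first annotated exon): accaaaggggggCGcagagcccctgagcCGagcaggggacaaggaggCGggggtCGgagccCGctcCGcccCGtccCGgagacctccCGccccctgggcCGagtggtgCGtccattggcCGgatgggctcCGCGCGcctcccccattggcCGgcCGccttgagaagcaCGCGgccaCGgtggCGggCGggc

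Wdr72, intron, lower, chr9:74187051-74187350: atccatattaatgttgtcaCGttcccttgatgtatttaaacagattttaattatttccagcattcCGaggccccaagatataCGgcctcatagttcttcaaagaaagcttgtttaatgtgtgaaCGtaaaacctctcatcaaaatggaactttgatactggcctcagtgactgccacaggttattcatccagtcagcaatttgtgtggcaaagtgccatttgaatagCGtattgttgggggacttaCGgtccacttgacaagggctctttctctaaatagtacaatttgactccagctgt

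P4ha2, distal intergenic, higher, chr11:54140466-54140765: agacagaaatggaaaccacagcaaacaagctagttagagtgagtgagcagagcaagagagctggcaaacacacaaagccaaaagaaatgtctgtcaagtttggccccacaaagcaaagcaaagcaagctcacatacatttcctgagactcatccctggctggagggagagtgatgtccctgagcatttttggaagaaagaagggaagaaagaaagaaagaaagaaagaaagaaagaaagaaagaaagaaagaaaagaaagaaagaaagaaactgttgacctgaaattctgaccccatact

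The Nt5dc2 stretch holds 22 CpGs in 191 bases, the 1700049E22Rik stretch 8 and the Wdr72 stretch 6 in 300 bases each, and the P4ha2 stretch none.

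Depth was low for every sample. The 3 WT samples held 31303, 24158 and 34712 reads in peaks, and the 3 Ogg1-/- samples held 28200, 25199 and 37591, with a median of 3 to 6 reads per peak. The 2 windows left out, chr2:98662501-98662901 and chr2:98666960-98667360, held from 0.968% to 13.2% of these reads in WT and from 0% to 21.6% in Ogg1-/-, with replicate 1 the highest in both genotypes. Reads outside them did not differ between genotypes beyond the spread (28169 ± 5773 in WT and 28067 ± 8336 in Ogg1-/-, SD, n = 3 each, exact two-sided permutation test, p = 0.9, where 0.1 is the smallest p the design allows). Across the 4130 peaks, Spearman's rho averaged 0.262 over the 6 pairs of samples of the same genotype and 0.25 over the 9 pairs of different genotype, so samples of the same genotype were hardly more alike. The sort was looked at with H3K4me3, the mark of active promoters. In NeuN+ nuclei all 10 neuronal marker genes had a promoter peak. So did 1 of 6 astrocyte genes (Slc1a3), 1 of 8 oligodendrocyte lineage genes (Mbp), and none of 5 microglial and 4 endothelial genes. In NeuN- nuclei these counts were 0 of 10, 0 of 6, 1 of 8 (Olig1), 0 of 5 and 0 of 4. Glial genes were thus hardly detected in either fraction and cannot show that glia were absent from NeuN+ nuclei. Among H3K27me3 peaks of NeuN+ nuclei, 0 of 10 neuronal, 0 of 6 astrocyte and 0 of 5 microglial markers had a promoter peak. Those of the oligodendrocyte lineage had 4 of 8 (Olig1, Olig2, Sox10 and Pdgfra) and those of endothelium 2 of 4 (Cldn5 and Flt1). No H3K27me3 peak was annotated to Ogg1. The H3K4me3 peak at its promoter held 12.5, 7.4 and 9.45 scaled reads in WT and 15.7, 8.11 and 9.05 in Ogg1-/-, which overlap, and this window does not test whether coding sequence is missing.

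Peaks were called differentially enriched where the unadjusted p from limma was under 0.05 and the log2 difference exceeded 0.5, the study's own rule. Values are given as scaled reads, the reads in a 401-bp window divided by the relative library size from TMM (trimmed mean of M-values), and differences are on the scale of log2(scaled reads + 1). Of the 4130 peaks, 193 (4.67%) were called, 95 (2.3%) higher and 98 (2.37%) lower in Ogg1-/-. Without any adjustment, 195 peaks had p under 0.05, and 0 (0%) passed at an adjusted p under 0.05 with limma, with edgeR or with DESeq2. The share called was therefore close to what the p threshold alone admits, and each peak named below is a leading peak of these samples, not an established difference. The adjusted p by limma was 0.0592 at the peak near P4ha2, 0.0815 at that in Fbxw4, and from 0.715 to 0.939 at every other called peak. The WT and Ogg1-/- samples did not overlap at 424 peaks (10.3%), among them 133 of the called ones. Since all nuclei of a sample were pooled, fewer nuclei carrying the mark and less mark per nucleus cannot be told apart.

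Calls were also counted by annotation class, without a test of the difference between classes. At promoters, 33 peaks were called lower and 13 higher in Ogg1-/- (3.01% and 1.19% of 1095), and edgeR called 19 lower and 13 higher. Gene-body peaks split evenly, with 32 in each direction (2.55% of 1256 each). Intergenic peaks leaned the other way, with 50 higher and 33 lower (2.81% and 1.85% of 1779), a lean that was gone with the authors' factors (31 each) and without 35 windows described below (37 higher, 39 lower). Among the 819 promoter peaks within 1 kb of a start site, 28 were called lower and 6 higher (3.42% and 0.733%). Among the 276 further out, 5 were called lower and 7 higher (1.81% and 2.54%). In either direction together, 4.15% and 4.35% were called, beside 4.67% of all peaks. The median difference was -0.17 within 1 kb and -0.21 further out, so the medians did not follow the split of calls. The median log2 difference was -0.18 over promoter peaks, -0.04 over gene-body peaks and 0.03 over intergenic peaks, beside -0.05 over all peaks. In DKO against Mutyh-/- the same medians were 0.09, 0.10 and 0.07, so promoters did not stand below the other classes there.

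The lean of promoters varied with the sample left out, and the samples also differed in library composition. Reads in promoter peaks made up 34.2%, 36.6% and 37.3% of reads outside the excluded windows in WT and 29.9%, 33.9% and 37.9% in Ogg1-/-. The Ogg1-/- samples thus span the WT range and go below it in replicates 1 and 2. The difference of -2.14 percentage points was within the spread (exact two-sided permutation test, p = 0.6), and it was -0.15 without Ogg1-/- replicate 1 (p = 0.9). That sample also had the highest share of peaks with no read (24%) and of reads in repeat peaks (12.9%) among the 6. Without it, the promoter peaks called were 27 lower and 17 higher with a median of -0.02. They were 53 lower and 11 higher without Ogg1-/- replicate 2, and 65 lower and 12 higher without Ogg1-/- replicate 3. Replicate 1 was the lowest in WT as well, and replicates 1 of Mutyh-/- and DKO had low promoter shares too, at 25.5% and 30.4%. The part of library composition in the promoter result was not tested.

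**Figure D1:**
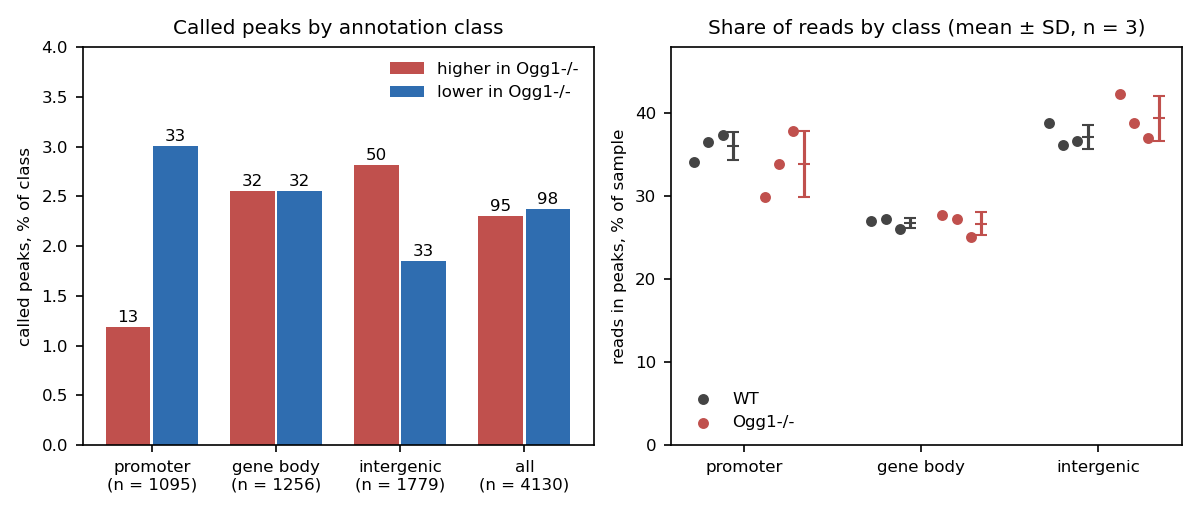
Left, peaks called higher (red) or lower (blue) in Ogg1-/- as a percentage of each annotation class, with their number above each bar. Right, share of each sample's reads in promoter, gene-body and intergenic peaks (1 point per sample, mean ± SD, n = 3). Promoters hold 33 lower against 13 higher calls, while the read shares of both genotypes overlap in every class.

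Base composition of the differing peaks was near that of all peaks. Over whole 401-bp windows the median number of CpGs was 6 for peaks called lower, 5 for peaks called higher and 5 for all peaks, and GC content was 49.9%, 47.9% and 47.9%. Peaks with at least 50% of bases soft-masked as repeats made up 18 of the 95 higher and 9 of the 98 lower calls, and 420 of all 4130.

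At promoters, the 4 leading peaks that were lower all lay on CpG-rich start sites. Tubb6, a beta-tubulin, had 20.4, 17.5 and 17.7 scaled reads in WT and 0, 6.42 and 11 in Ogg1-/- (log2 difference -2.12, standard error, SE, 0.67). Nt5dc2, a member of the 5'-nucleotidase domain family, had 12.2, 7.64 and 10.8 against 0, 2.14 and 2.36 (-2.33, SE 0.80, chr14:31130898-31131298). Kdf1, a regulator of keratinocyte differentiation, had 18.3, 17.5 and 20.8 against 7.71, 4.28 and 10.2 (-1.30, SE 0.50, chr4:133519136-133519536). Every WT sample of these 3 genes was above every Ogg1-/- sample, as the rule for naming required, and Ogg1-/- replicate 1 had no read at Tubb6 and Nt5dc2. Cpt1a, the carnitine palmitoyltransferase that admits long-chain fatty acids to mitochondria, had 14.3, 24 and 13.8 scaled reads in WT and 3.85, 5.35 and 5.5 in Ogg1-/- (-1.61, SE 0.63, chr19:3323087-3323487). The Nt5dc2 and Kdf1 calls held when any 1 sample was left out, whereas Tubb6 lost its call without Ogg1-/- replicate 1 and Cpt1a without WT replicate 2. At Nt5dc2 the Ogg1-/- samples together held 5 reads, so the size of its difference rests on the pseudocount of 1. It ran from -2.76 to -1.58 over the alternative settings. In all, 16 of the 1095 promoter peaks met the rule for naming in this direction and 5 in the other. By the same rule, gene bodies had 13 lower and 6 higher of 1256. Intergenic peaks had 3 lower and 8 higher of 1779.

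Of the 4 leading promoter peaks that were higher, 3 had few reads in WT. 1700049E22Rik, a gene without a known function here, had 0, 2.18 and 0.77 scaled reads in WT and 7.71, 18.2 and 12.6 in Ogg1-/- (2.88, SE 0.87, chr6:100525959-100526359). Calca, which encodes calcitonin and the neuropeptide CGRP, had 5.09, 0 and 0 against 6.42, 16.1 and 12.6 (2.71, SE 0.93, chr7:114637892-114638292). Cd22, an inhibitory receptor of B cells and microglia, had 4.07, 0 and 0.77 against 8.99, 13.9 and 6.28 (2.31, SE 0.98, chr7:30877073-30877473), and lost its call without WT replicate 2 or Ogg1-/- replicate 2. In these 3 the WT samples together held few reads, so the size of the difference rests on the pseudocount of 1. Gm13034 had more reads in WT, 4.07, 7.64 and 10.8, against 23.1, 15 and 18.8 (1.30, SE 0.57, chr4:146067102-146067502), and it lost its call without WT replicate 1 or Ogg1-/- replicate 1. Igf2bp1, an RNA-binding protein of fetal tissues, was the remaining promoter peak to meet the rule and is named after its values were seen, at 10.2, 12 and 11.5 scaled reads in WT and 24.4, 24.6 and 18.1 in Ogg1-/- (0.92).

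In gene bodies, the leading peaks that were lower held 0 to 5.14 scaled reads in every Ogg1-/- sample. Wdr72, known for its role in enamel formation, had 15.3, 8.74 and 9.22 scaled reads in its intron in WT and 0, 0 and 2.36 in Ogg1-/- (-2.97, SE 0.95, chr9:74187001-74187401). Celrr, a long non-coding RNA gene, had 18.3, 12 and 3.84 against 0, 0 and 3.14 (-2.73, SE 0.93, chr1:121178251-121178651). Sox6, a transcription factor of interneuron and glial development, had 8.15, 6.55 and 13.1 against 5.14, 0 and 0 (-2.44, SE 0.92, chr7:115490089-115490489). All 3 calls held with any 1 sample left out. The Ogg1-/- samples together held 3 reads at Wdr72 and 4 each at Celrr and Sox6. The sizes of these differences therefore rest on the pseudocount of 1. Over the alternative settings the difference ran from -3.65 to -1.92 at Wdr72, from -3.38 to -1.77 at Celrr and from -3.07 to -1.52 at Sox6. An intronic peak annotated to Mir5127 had 9.17, 18.6 and 14.6 against 1.28, 2.14 and 4.71 (-2.08, SE 0.84).

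All 4 leading gene-body peaks that were higher lost their call when single samples were left out, and of the 4 lower ones Mir5127 did, without WT replicate 2. The higher peaks lay nearer the p threshold, with p by limma from 0.0158 to 0.0361, beside 0.0018 to 0.0132 for the lower ones. These losses therefore do not compare the directions. The window annotated to Mir8092 had 0, 8.74 and 2.31 scaled reads in WT and 8.99, 16.1 and 13.3 in Ogg1-/- (2.08, SE 0.86, chr19:40882007-40882407). Catsperb, a subunit of the sperm calcium channel, had 6.11, 3.28 and 0 against 25.7, 7.49 and 9.42 (2.09, SE 0.98, chr12:101583786-101584186). An intronic window 362252 bp from the start of Klra2, a lectin-like receptor of natural killer cells, had 0, 2.18 and 3.07 against 12.8, 8.56 and 7.85 (2.17, SE 1.03, chr6:130884710-130885110). Mir8092 and Catsperb each lost their call without either of 2 samples, and Klra2 without any of 3. Kctd16, an auxiliary subunit of the GABA-B receptor, carried far more reads in its intron, 93.7, 56.8 and 112 in WT and 140, 116 and 133 in Ogg1-/- (0.61, SE 0.29). Its difference was 0.05 under cyclic loess scaling, and it was called in 7 of 15 alternative settings.

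Between genes, the peak with the smallest p of all lay 12723 bp from the nearest annotated start, that of P4ha2, which encodes a subunit of the collagen prolyl hydroxylase. It had 28.5, 29.5 and 38.4 scaled reads in WT and 66.8, 107 and 88.7 in Ogg1-/- (1.40, SE 0.32, chr11:54140416-54140816). Pex2, a peroxisome biogenesis factor, was the nearest gene to a window at -284253 bp from its start, where minus means upstream. That window had 212, 163 and 196 against 306, 233 and 429 (0.72, SE 0.24, chr3:5860492-5860892). Hic2, a transcriptional repressor, had 66.2, 36 and 41.5 against 84.8, 68.5 and 99.7 (0.83, SE 0.32, chr16:17222152-17222552). The P4ha2 call held under every scaling and with every sample left out, whereas under cyclic loess the difference was 0.06 at Pex2 and 0.34 at Hic2, and neither was called there or with the authors' factors. Or7e175, an olfactory receptor gene, had 3.06, 2.18 and 1.54 against 16.7, 7.49 and 12.6 (1.99, SE 0.82, chr9:20139017-20139417). With single samples left out, Or7e175 lost its call without Ogg1-/- replicate 1, Pex2 without Ogg1-/- replicate 3, and Hic2 without WT replicate 2 or 3.

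Only 3 intergenic peaks met the rule in the lower direction. The window near Sfrp2, a secreted antagonist of Wnt ligands, had 9.17, 9.83 and 8.45 scaled reads in WT and 0, 3.21 and 1.57 in Ogg1-/- (-2.20, SE 0.91, chr3:83763571-83763971). That near Tshz3, a zinc-finger transcription factor, had 12.2, 7.64 and 6.15 against 0, 2.14 and 2.36 (-2.09, SE 0.93, chr7:36692215-36692615). That near Fgfr3, a fibroblast growth factor receptor, had 12.2, 15.3 and 11.5 against 1.28, 5.35 and 7.85 (-1.46, SE 0.71, chr5:33695496-33695896). All 3 lost their call without Ogg1-/- replicate 1, Tshz3 also without WT replicate 1, and Fgfr3 also without any single WT sample. At Sfrp2 and Tshz3 the Ogg1-/- samples together held 5 reads each, so the size of these differences rests on the pseudocount of 1.

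Repeat peaks gave 3 of the leading windows, all higher. An Fbxw4 intron window, 67.3% masked, had 21.4, 16.4 and 29.2 scaled reads in WT and 46.2, 91 and 51 in Ogg1-/- (1.42, SE 0.35, chr19:45649965-45650365). A window at -63755 bp from the start of Fam171a1, 74.6% masked, had 52, 12 and 30 against 82.2, 41.7 and 58.9 (1.11, SE 0.34, chr2:3050069-3050469), and here the genotypes overlapped. A window near Mir101c, 94% masked, had 3.06, 3.28 and 0 against 60.4, 6.42 and 14.9 (2.90, SE 0.92, chr9:3035859-3036259), so that Ogg1-/- replicate 1 carried most of it. The Mir101c window lost its call without that sample and with edgeR and DESeq2, and the Fam171a1 window without WT replicate 2 and with DESeq2.

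**Figure D2:**
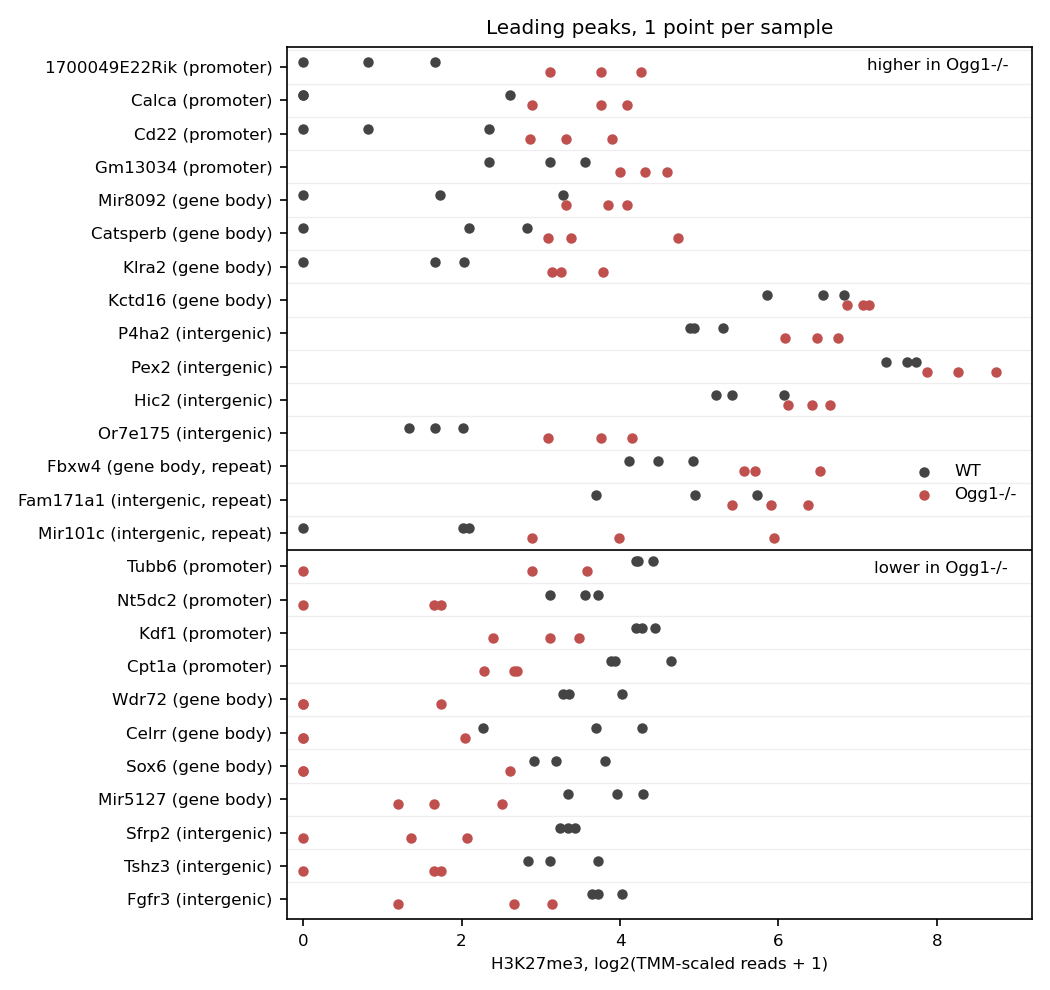
Scaled H3K27me3 reads of the 26 leading peaks, on the scale of log2(TMM-scaled reads + 1), with 1 point per sample for WT (dark) and Ogg1-/- (red) and the annotation class in brackets. The 11 lower peaks hold at most 24 scaled reads in any sample of either genotype, whereas Kctd16, P4ha2, Pex2 and Hic2 of the higher group exceed that in every sample.

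In the main fit, calls at the strongest peaks were all higher. Among the 37 peaks with a mean of at least 20 scaled reads over the 6 samples, 15 (40.5%) were called higher and 0 lower, beside 4.67% called of all peaks (unadjusted p by limma in each case). All but 12 of these 37 were peaks in every table used, and of the 12 others 3 were called, all higher. Of the 4130 peaks, 35 overlapped a peak by at least 1 bp in each of the other 4 tables used, H3K4me3 and Suz12 in NeuN+ nuclei and both histone marks in NeuN- nuclei. These 35 windows lay mainly between genes (20 intergenic, 10 gene-body and 5 promoter), 12 of them were repeat peaks, and their mean ranged from 5.76 to 439 scaled reads with a median of 59.8. H3K4me3 and H3K27me3 usually mark opposite states, active and silent.

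Of the 35 shared windows, 14 (40%) were called higher in Ogg1-/- and 0 lower, 29 had a difference above 0, and the median difference was 0.53. P4ha2, Pex2, Hic2, Fam171a1 and Mir101c are among the 14, and Axin2, Cdk8, Aida and Zc3h7a are named after their values were seen, for their high levels. The window annotated to Axin2, a scaffold of the beta-catenin destruction complex, lay 68145 bp from its start. It had 259, 190 and 259 scaled reads in WT and 253, 338 and 444 in Ogg1-/- (0.52). An intronic window at -24917 bp from the start of Cdk8, the Mediator kinase, had 198, 156 and 211 against 209, 245 and 384 (0.53). The promoter window of Aida, an Axin interactor, had 213, 151 and 156 against 369, 195 and 294 (0.69), and that of Zc3h7a, an RNA-binding zinc-finger protein, 194, 96.1 and 134 against 188, 204 and 292 (0.72). At Axin2, Aida, Cdk8 and Zc3h7a the genotypes overlapped, with WT replicate 2 the lowest sample at each. The count depended on scaling, on the test and on single samples. With the authors' factors or with cyclic loess 5 were called higher (median 0.10 under the latter), and with DESeq2 4. It was 6 without WT replicate 2 and 9 without Ogg1-/- replicate 1. Without robust empirical Bayes, limma called 11 higher and 2 lower, the only setting with lower calls among these windows.

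The shared windows took 14.4%, 9.96% and 8.87% of reads outside the excluded windows in WT and 21.3%, 11.8% and 12.1% in Ogg1-/- (exact two-sided permutation test, p = 0.4). The lowest Ogg1-/- sample was above 2 of the WT samples and below WT replicate 1. Replicate 1 was the highest in every genotype, also in Mutyh-/- (31.9%) and DKO (21.8%). Each Ogg1-/- sample was above the WT sample of the same number, and the test did not use the numbers. In Mutyh-/- and DKO the same windows stood above WT as well, with medians of 0.53 and 0.45, comparisons that share the WT samples with this one. In DKO against Mutyh-/- their median was 0.09, beside 0.08 for all peaks.

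In the other tables the same 35 windows gave 3 calls in NeuN+ H3K4me3, 2 in NeuN+ Suz12 and 4 in NeuN- H3K4me3, all higher, and 3 higher and 1 lower in NeuN- H3K27me3. These are 8.57%, 5.71%, 11.4% and 11.4% of the windows, beside 3.8%, 3.5%, 5.14% and 4.31% of all peaks called in those tables. The median difference was 0.37, 0.45, 0.64 and -0.15 in the same order. At the P4ha2 window, H3K4me3 in NeuN+ nuclei had 13.6, 2.47 and 16.1 scaled reads in WT and 18.9, 43.2 and 25.6 in Ogg1-/- (1.59). At the Axin2 window, H3K4me3 in NeuN- nuclei had 47.1, 29.6 and 33.7 against 97.9, 131 and 110 (1.61). Kctd16, a peak in 3 of the other 4 tables, was higher in NeuN- nuclei for H3K27me3 (1.74) and H3K4me3 (1.22). None of these passed at an adjusted p under 0.05 in its table. Whether a property of these windows other than H3K27me3 moved with genotype was not tested.

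**Figure D3:**
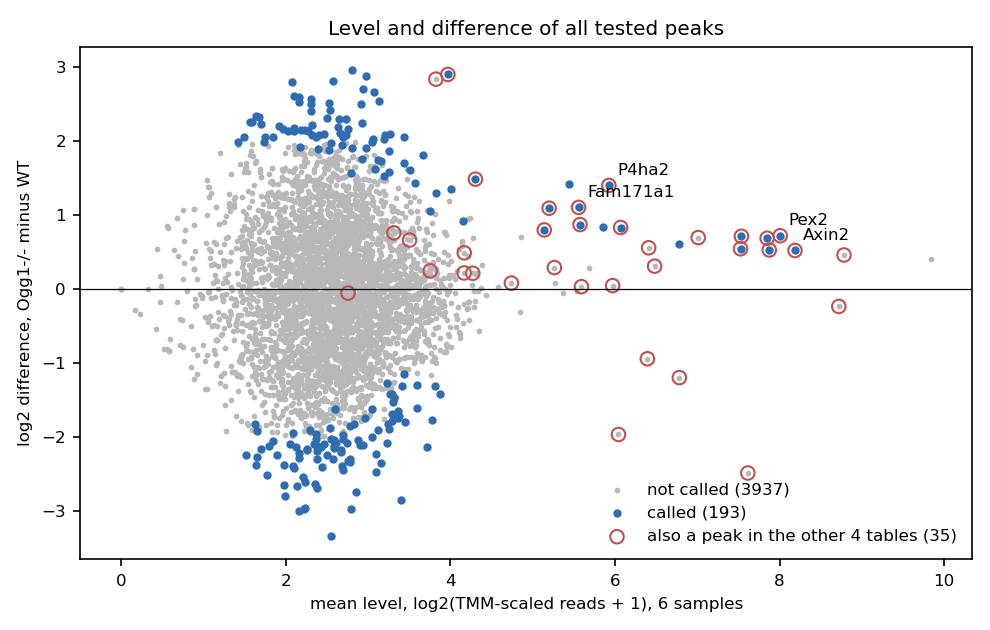
Log2 difference between Ogg1-/- and WT against mean level for all 4130 peaks, with the 193 called peaks in blue and the 35 windows that are peaks in all 5 tables circled in red. At the right, where peaks are strong, calls of the main fit lie only above 0, while weaker peaks were called in both directions.

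Overlap with the other tables was counted over all called peaks, the 14 shared windows included. Of the 193 called peaks, 24 overlapped an H3K4me3 peak. Of those, 3 were called in H3K4me3, all higher, beside 3.8% of all H3K4me3 peaks in NeuN+ nuclei. Suz12 peaks overlapped 29 of the 193, and 0 of those were called in Suz12 by limma, beside 3.5% of all Suz12 peaks. The overlap was 21 of 95 higher and 8 of 98 lower peaks for Suz12, beside 190 of all 4130, and 16 and 8 for H3K4me3, beside 198 of 4130. Among promoter peaks, 114 coincided with a Suz12 peak, and 6 of those were called lower and 4 higher. That is 8.77% called, beside 4.2% of all promoter peaks, without a test of the difference. In NeuN- nuclei, 247 of the 4130 windows were also H3K27me3 peaks, where 7 were called higher and 3 lower, beside 4.31% called of all H3K27me3 peaks there. Of the 25 among them that were called in NeuN+ nuclei, 2 were also called in NeuN- nuclei, Hic2 and Kctd16, both higher in both fractions.

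Genes were also grouped by function through their nearest start site. Developmental transcription factors, the classical Polycomb targets, made up 431 peaks of 165 genes, of which 10 were called higher and 12 lower (5.1%, beside 4.67% of all peaks), with a median of -0.18. The promoter peak of Prox1, a regulator of dentate granule cell identity, had 5.09, 14.2 and 9.99 scaled reads in WT. No Ogg1-/- sample had a read there. With 3 reads over the Ogg1-/- group taken as the floor, Prox1 was 9.65-fold lower, a ratio that leaves out the spread of the WT samples. Lhx1, a LIM homeobox gene, had 6.11, 15.3 and 16.9 against 3.85, 0 and 8.64 (-1.82). Promoter peaks were also called lower at Prdm1, Pax9, Pitx3, Barhl1 and Tbx3, with differences from -1.15 to -1.78. Of the list's 120 promoter peaks, 7 were thus called lower and 1 higher, that of Gata2, beside 3.01% and 1.19% of all promoter peaks. Gata2, a regulator of blood and midbrain development, had 0, 15.3 and 5.38 against 11.6, 25.7 and 12.6 (1.82). Away from promoters the list went both ways, since peaks near Foxe1, Sox5, Dmrta2, Tbx4, Tfap2c, Otx1, Irx1 and Sox13 were higher and those near Sox6 and Irx3 lower. Six3, a forebrain homeobox gene, had 3 called peaks, 2 lower and 1 higher. The list's count was 2 higher and 6 lower with edgeR, 5 and 7 with DESeq2 and 5 and 7 with the authors' factors, whereas it was 4 and 23 without Ogg1-/- replicate 2 and 6 and 25 without replicate 3. Hox genes, 9 peaks of 6 genes, had 0 calls by limma, edgeR or DESeq2 and a median of -0.09.

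Of 40 Wnt pathway peaks, 4 were called lower and 2 higher (15%, beside 4.67% of all peaks). The lower ones were Sfrp2, Wif1, Rspo4 and Tcf7l2, of which the first pair are secreted antagonists, Rspo4 is a secreted enhancer of Wnt signalling and Tcf7l2 a transcription factor at its end. Tcf7l2 had 6.11, 13.1 and 9.22 scaled reads in WT and 0, 4.28 and 1.57 in Ogg1-/- (-2.08). Wif1 had 3.06, 2.18 and 7.68 against no read in any Ogg1-/- sample, 4.67-fold lower by the same floor. The higher ones were the Axin2 window and an intron peak of Lef1, another transcription factor of the pathway, at 0, 2.18 and 10.8 against 18, 4.28 and 12.6 (1.73). The median of the list was -0.01, and edgeR and DESeq2 also called 4 of its peaks lower. The count of higher peaks was 2 with edgeR, and 0 with DESeq2, with the authors' factors and without Ogg1-/- replicate 3.

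Neuronal gene groups were small, and their shares called ran from 0% to 22.2%, beside 4.67% of all peaks. Glutamate receptor and scaffold genes had 9 peaks, with 0 called higher and 2 lower (22.2%). The Grin2d promoter, of an NMDA receptor subunit, had 13.2, 13.1 and 13.1 scaled reads in WT and 0, 5.35 and 11 in Ogg1-/- (-1.74). The Grin2d samples of WT were alike and those of Ogg1-/- spread from 0 to just under them. The Grin2d peak was not called without Ogg1-/- replicate 1, nor by edgeR or DESeq2. GABA and interneuron genes (12 peaks, median -0.57) and receptors for monoamines, acetylcholine and opioids (18 peaks, median -0.07) had 0 calls by limma and edgeR, and DESeq2 called 1 GABA and interneuron peak, lower. Ion channels had 1 call of 38 peaks, a Scn10a intron peak at 0 in all WT samples and at 8.99, 2.14 and 2.36 in Ogg1-/-. Axon guidance genes had 2 of 17 peaks called higher (11.8%), and 0 with edgeR or DESeq2. They were annotated to Epha2 and, at -27067 bp from its start, to Plxnd1. Cadherins had 1 of 30 called lower, Cdh4. Signalling genes of the Bmp, Tgf-beta, hedgehog and Notch pathways had 1 of 38 in each direction, Bmp7 higher and Smad6 lower.

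Olfactory and vomeronasal receptor genes leaned upwards. Of 112 peaks near 82 such genes, 10 were called higher and 1 lower (9.82%, beside 4.67% of all peaks, 2.3% higher and 2.37% lower), and the median was 0.44, beside -0.05 for all peaks. Or1f19 was nearest to a pair of them, at 3.06, 0 and 2.31 scaled reads in WT and 20.6, 12.8 and 7.85 in Ogg1-/- (2.54) and at 1.02, 0 and 0 against 18, 2.14 and 14.9 (2.96). Vmn1r2 had 23.4, 16.4 and 24.6 against 68.1, 25.7 and 56.5 (a difference of 1.1) and is among the 35 shared windows, as is Vmn1r77. Or12d2 had no read in any WT sample and 10.3, 4.28 and 4.71 scaled reads in Ogg1-/-. That is 6.43-fold higher by the floor of 3 reads over the WT group, leaving out the spread of the Ogg1-/- samples. The only lower peak was an intron window of Vmn1r68 (-2.29). Repeat peaks are common here, 39 of 112, and without repeat peaks 5 were higher and 1 lower with a median of 0.35. The median was lowest without WT replicate 2 (0.13, with 5 higher and 1 lower), and without Ogg1-/- replicate 1 there were 4 higher and 3 lower (median 0.37). In DKO against Mutyh-/- the median of the list was 0.15, beside 0.08 for all peaks.

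Genes of base excision repair and of Polycomb itself were covered thinly. Nudt1, which hydrolyses oxidised guanine nucleotides before they enter DNA, had a 3' UTR peak at 18.3, 4.37 and 16.9 scaled reads in WT and 5.14, 0 and 0.79 in Ogg1-/- (-2.47), and the genotypes overlapped. Smug1, a uracil glycosylase, was not called (1.46, SE 0.99). The 7 peaks near Polycomb genes, 1 in Jarid2 and 6 near Aebp2, had 0 calls by limma, edgeR or DESeq2 and differences from -0.88 to 1.51. The promoter peaks of Wnt6 and Oaf, genes that the study names, were not called (-1.16 and -0.51). Near Ogg1 itself, 10 peaks lay within 10 Mb on chromosome 6, and their median was 0.33. Only a window annotated to Plxnd1 was called, at 0, 0 and 9.22 scaled reads in WT and 12.8, 12.8 and 4.71 in Ogg1-/- (2.25). This window is classed as 3' UTR, lies at -27067 bp from the Plxnd1 start and overlaps a peak in 3 of the other tables used.

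**Figure D4:**
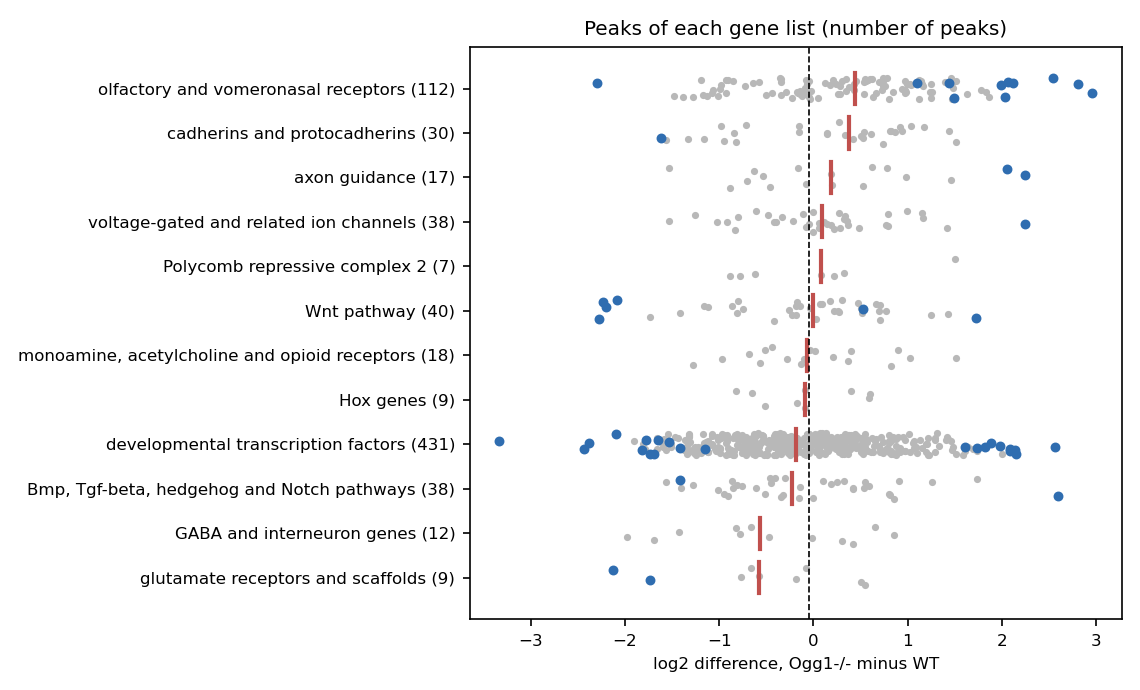
Log2 difference between Ogg1-/- and WT for the peaks of each gene list, with called peaks in blue, others in grey, the median of the list as a red bar and the median of all peaks as a dashed line. Of the 12 lists plotted, olfactory and vomeronasal receptors sit furthest to the right (median 0.44) and glutamate receptors and scaffolds furthest to the left (median -0.57, 9 peaks).

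Whether these differences recurred on another background was asked with DKO against Mutyh-/-, where 181 of 4130 peaks (4.38%) were called. Of the 193 peaks called in Ogg1-/- against WT, 96 (49.7%) had the same sign there, beside 48.7% of all peaks. The shares were 46 of 95 for the higher and 50 of 98 for the lower peaks. Called in both comparisons were 6 peaks, named here after their values were seen, of which 3 had the same direction and 3 the opposite one. Those in the same direction were an intron peak of Dock2, a microglial and leukocyte exchange factor for Rac, a peak near Grb10, an imprinted growth regulator, and the 3' UTR peak annotated to Vmn1r183. Dock2 had 8.15, 22.9 and 16.9 scaled reads in WT and 0, 9.63 and 0 in Ogg1-/- (-2.84), and differed by -2.04 in DKO against Mutyh-/-. Those in opposite directions were near Vegfa, in Arhgap28 and in Kctd16. No peak among the leading 26 was called again in the same direction.

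Means of all genotypes are given for some of the leading peaks. These peaks were chosen on the difference between WT and Ogg1-/- in the same samples, which favours a WT or Ogg1-/- mean that stands apart. P4ha2 averaged 32.1 ± 5.46 scaled reads in WT, 87.5 ± 20.1 in Ogg1-/-, 76.4 in Mutyh-/- and 75.3 in DKO, with WT the lowest. Kctd16 averaged 87.6, 130, 172 and 92.8 in the same order, with the DKO near WT. Nt5dc2 averaged 10.2, 1.5, 8.46 and 11.1, with Ogg1-/- the lowest, the group for whose low level it was chosen. The departure from additivity, the difference between both effects of Ogg1 loss, had an unadjusted p under 0.05 at 11 of the 26 leading peaks and at 190 of all 4130, and 0 passed at an adjusted p under 0.05 (lowest adjusted p by limma, 0.818). The 26 were selected on 1 of the effects that enter this difference, so their count is a description.

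**Figure D5:**
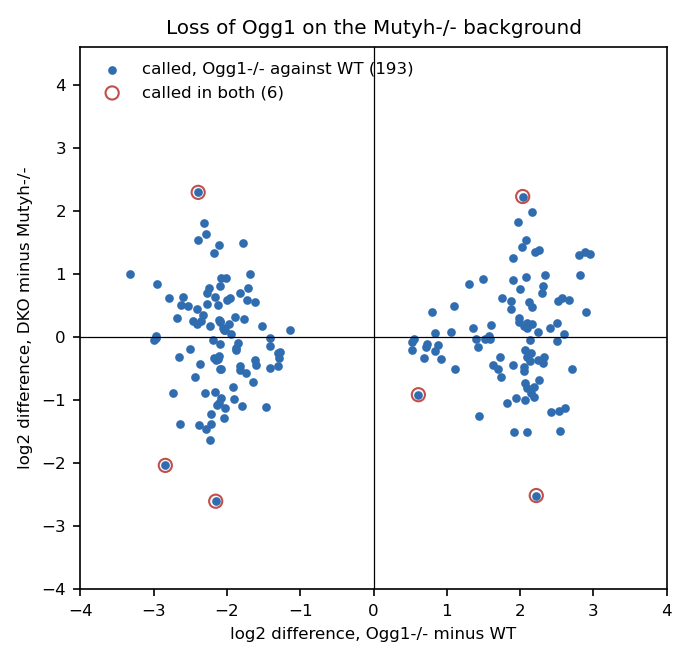
Log2 difference for the loss of Ogg1 in the WT background (horizontal) and in the Mutyh-/- background (vertical) at the 193 called peaks, with the 6 called in both circled in red. The points spread to both sides of each zero line, with 96 of 193 sharing a sign.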

How the data were processed

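NeuN+ nuclei were sorted from pooled hippocampi, and H3K27me3 was profiled by ChIP-seq with single-end reads. Per the study's methods and the submitters' processing notes, the authors aligned reads with Bowtie2 2.3.5.1 to GRCm38 (mm10), called peaks per sample at a false discovery rate under 0.05, kept consensus peaks, and counted reads with DiffBind 3.10.1 in windows of 401 bp annotated with ChIPseeker 1.36. The handling of input, duplicates and problematic regions is not given in the sources used here. The deposited values are a signal per window, reads times a factor per sample. Values were whole multiples of that factor (tolerance 0.001), so whole reads were recovered in all 12 samples of the table.

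All 12 samples entered 1 fit. Reads were rescaled with TMM (edgeR 4.0.16) after the chromosome 2 windows were left out, and log2(scaled reads + 1) was tested with limma 3.58.1 (trend, robust empirical Bayes, 8 residual degrees of freedom, R 4.3.3), genotype being the only factor. P values were adjusted by Benjamini-Hochberg over 4130 peaks. Other tables were fitted separately in the same way. The script was tested on simulated data. Peaks were named in each class and direction by smallest p, at most 4, from called peaks with no overlap between genotypes, a mean of at least 5 scaled reads and under 50% masked bases, plus 3 repeat peaks and the called peaks of 14 gene lists. Members and lists were chosen with earlier results of these data known, and the olfactory list was widened to the symbols in the table. The low depth limits precision, and the samples vary as pools, not as animals. At all but 147 peaks the fit took its spread from the trend over peaks of similar level. There, SE and p do not reflect the peak's own spread between pools. At 10 called peaks the peak's own SD was above 1.5 times the fitted one. Alternatives were other scalings, edgeR, DESeq2 1.42.0, other pseudocounts, filters, samples left out and a replicate block. 1 called peak of the gene lists is not reported here.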

Additional observations from a re-analysis of the deposited data

Results flagged for a closer look

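The effect of losing Ogg1 on the WT background was set against that on the Mutyh-/- background by testing the difference itself with limma. At 11 of the 26 leading peaks, beside 190 of all 4130, the unadjusted p was under 0.05. At an adjusted p under 0.05, 0 passed. The 26 were selected on 1 of the effects that enter this difference, so the count is a description. The values below are the effect in DKO against Mutyh-/- minus that in Ogg1-/- against WT, on the log2 scale. Among peaks higher in Ogg1-/-, it was -1.53 at Kctd16, -1.61 at Fam171a1, -1.59 at Fbxw4, -1.43 at P4ha2, -3.59 at Catsperb, -3.23 at Calca, -0.84 at Pex2 and -2.73 at Cd22. Among peaks lower in Ogg1-/-, it was 2.68 at Nt5dc2, 2.91 at Tshz3 and 2.95 at Wdr72. Every one of these signs is opposite to that of the effect on the WT background, by which the peaks were chosen, and that choice favours such signs. The adjusted p by limma was 0.818 at Kctd16, Fam171a1 and Fbxw4 and 0.934 at the other 8.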

How the results depend on the processing

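The count of 193 called regions ranged from 149 (edgeR) to 226 (replicate block) over the scalings, tests and pseudocounts, and from 158 to 249 with 1 sample left out. It was 98 among peaks with a mean of at least 5 scaled reads, with 25 in gene bodies, 38 between genes and 52 of the same direction in DKO against Mutyh-/-, as fewer peaks were tested. The intergenic split was 31 higher and 31 lower with the authors' factors. Adjusted calls numbered 2 with DESeq2 size factors or a pseudocount of 0.5, 1 without repeat peaks, 1 with the replicate block, and 0 to 2 with 1 sample left out. Without the 35 windows of all tables, an alternative chosen after seeing the data, 186 regions were called (76 higher, 110 lower), 1 at an adjusted p. With 1 sample left out, promoter calls ranged from 44 to 77, calls among the 35 windows from 6 to 14, H3K4me3 calls at called regions from 1 to 3, Suz12 calls from 0 to 4 and NeuN- H3K27me3 calls from 9 to 22. Calls among the 35 windows were 5 with the authors' factors, 5 with cyclic loess, 4 with DESeq2 and 9 without repeat peaks, and non-additive peaks 7 with the authors' factors. The log2 difference in total reads, -0.02, was 0.0084 with the chromosome 2 windows kept and ranged from -0.26 to 0.13 with 1 sample left out. No leading peak changed sign, and 9 of 26 kept their call throughout. Same-numbered samples correlated at 0.074, 0.047 and 0.039 in their deviations, and pairs of different number at -0.066 to 0.022. Each sample thus correlated best, though weakly, with its own number. The main fit and the permutation tests did not use the numbers, and whether they mark a shared batch was not tested. With the number as a block, 226 regions were called. The causes of these shifts were not tested, and 3 to 6 reads per peak limit all of them.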
